A study of Mus musculus with 2 samples.

Results

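The ACTH receptor and the cAMP cascade that it opens were followed through 10 genes in mouse adrenal gland: Mc2r, Mrap, Mrap2, Prkaca, Prkacb, Prkar1a, Prkar2b, Pde8b, Pde2a and Pde11a. They were chosen by name from what is known of the pathway, with earlier results of these data known. Matched by symbol to the annotation, all 10 were found among 55536 annotated genes. Adrenal gland tissue of male B6Cast F1 mice, aged 10 days after birth, gave total RNA, and 300 ng went into each of 2 libraries with added spike-in transcripts. No treatment, mutation or second genotype was part of the study, so both libraries form 1 group, called replicate 2 and replicate 1. Sample characteristics number the animals 4 for replicate 2 and 3 for replicate 1, while both library descriptions carry the number 3 and both samples share 1 donor identifier, so the spread between them may be technical. No gene can be tested between conditions here, and 2 libraries allow no exact p below 0.5.

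ACTH, the pituitary hormone of the stress axis, binds the melanocortin 2 receptor on cells of the adrenal cortex. This receptor needs the accessory protein MRAP to reach the cell surface and to bind ACTH. Through the stimulatory G protein it drives adenylyl cyclase, and the cAMP made there frees the catalytic subunits of protein kinase A (PKA) from their regulatory subunits. PKA then raises steroid output within minutes through the cholesterol carrier StAR and, more slowly, through transcription of the steroidogenic enzymes, while phosphodiesterases end the signal by hydrolysing cAMP. In human adrenal disease, changes in PRKACA, PRKAR1A, PDE8B and PDE11A have been linked to tumours or hyperplasia that release too much cortisol.

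The cortex that holds this receptor was plainly present in both libraries, and so were other tissues. The depth was 38984236 expected counts in replicate 2 and 36982665 in replicate 1. All 8 cortex markers were detected, meaning at least 1 TPM (a transcript level per length, scaled to the whole library) in both libraries, which summed to 5553 TPM in replicate 2 against 6346 TPM in replicate 1. All 8 chromaffin cell markers of the medulla were detected too, with sums of 1256 and 1508 TPM. The 7 brown adipocyte markers summed to 3076 TPM in replicate 2 against 3483 TPM in replicate 1. The 8 liver markers summed to 11786 TPM in replicate 2 and 3746 TPM in replicate 1, and the 7 skeletal muscle markers to 836 and 311 TPM. Within the cortex, zona glomerulosa markers summed to 183 TPM in replicate 2 against 272 TPM in replicate 1. The genes listed as zona fasciculata markers summed to 1086 and 1307 TPM. That list includes Mc2r, whose zone of expression was not measured in this bulk tissue. Endothelium markers summed to 244 TPM in replicate 2 against 249 TPM in replicate 1, those of pericytes and smooth muscle to 144 and 83.9 TPM, and those of neurons and glia to 49.3 and 33.2 TPM. Sums for blood cells were 91.8 TPM in replicate 2 against 29.9 TPM in replicate 1 for granulocytes, 43.4 and 27.8 TPM for macrophages, and 14.4 and 6.91 TPM for lymphocytes. The part of these tissues in the levels given here was not tested. In such bulk tissue, fewer cells of a type and less RNA per cell cannot be told apart.

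Of the 10 chosen genes, 8 lay above the median level of detected genes, and 2 were low. At least 1 TPM in both libraries was reached by 8 of the 10 genes, against 56.7% of all nuclear protein-coding genes. Those 8 ranged from 25.4 TPM for Pde8b to 206 TPM for Prkar2b in the mean, while the median of the 12487 detected protein-coding genes was 9.685 TPM. Mrap2 and Pde11a lay under 1 TPM in the gene table. From high to low the order of mean levels was Prkar2b, Mrap, Prkar1a, Prkaca, Mc2r, Pde2a, Prkacb, Pde8b, Mrap2 and Pde11a. Of neighbours in this order, Mrap and Prkar1a overlapped, and in each other pair both libraries of the higher gene lay above both of the lower. In the second transcript table, which the authors derived from reads and an index and where the median log2 shift of detected genes from the gene table was 0.58 in replicate 2 and 0.67 in replicate 1, Prkacb at 62.8 TPM in the mean stood above Pde2a at 36.4 TPM, and the rest of the order was as given. Mrap2 had 1.34 TPM in replicate 2 and 1.30 TPM in replicate 1 there, so that 9 of the 10 genes reached 1 TPM. The share of all genes that did so in that table is not given here. The genes lie on 10 different chromosomes.

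**Figure D1:**
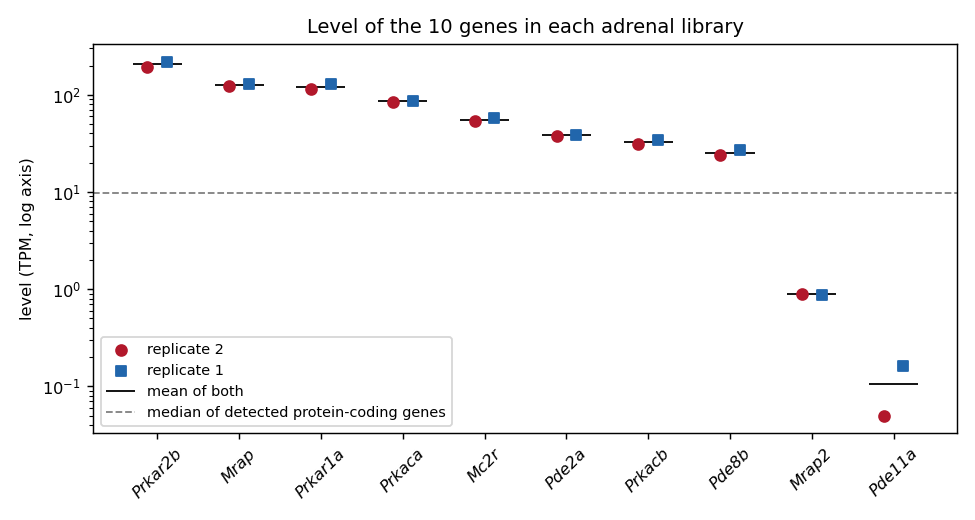
Levels of the 10 genes in TPM on a log scale, with 1 point per library and replicate 2 drawn left of replicate 1. Prkar2b stands highest at 206 TPM in the mean, 8 genes lie above the median of detected genes at 9.685 TPM, and Mrap2 and Pde11a lie under 1 TPM.

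Mc2r, the ACTH receptor itself, ranked high among detected genes. Mc2r (ENSMUSG00000045569.7, chr18:68406907-68429320, minus strand, mm10) had 53.4 TPM in replicate 2 and 57.8 TPM in replicate 1, from 3038 and 3240 counts. Its mean of 55.6 ± 3.08 TPM (SD, n = 2) exceeded that of 91.7% of detected protein-coding genes. It is annotated with 1 transcript of 3 exons, so its level involves no split between isoforms. Of the 5 melanocortin receptors, Mc2r alone reached 1 TPM. Mc5r, known for its role in exocrine glands, had 0.200 TPM in replicate 2 and 0.160 TPM in replicate 1. Mc1r of pigment cells had 1 count in each library, Mc4r of appetite circuits had 1 and 3 counts, and Mc3r had 0 in both, which allows up to 3 counts in each.

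Mrap, the accessory protein gene, was expressed above its receptor, and its paralog Mrap2 was scarcely present. Mrap (ENSMUSG00000039956.9, chr16:90738207-90749785, plus strand) had 124 TPM in replicate 2 and 129 TPM in replicate 1, with a mean of 126 ± 3.22 TPM (SD, n = 2). Within each library Mrap exceeded Mc2r, by 1.21 in replicate 2 and by 1.15 in replicate 1 on the log2(TPM + 0.1) scale, with a mean difference of 1.18 ± 0.04 (SD, n = 2). The ratio of the mean levels was 2.27. Adipocytes are also known to express Mrap, and the 8 adipocyte markers summed to 2880 TPM in replicate 2 and 2818 TPM in replicate 1. Their part in the level of Mrap was not tested.

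Mrap2, whose protein is best known as a partner of the MC4 receptor in the brain, reached the table through few reads. Mrap2 (ENSMUSG00000042761.14, chr9:87144306-87184045, plus strand) had 65 counts in replicate 2 and 62 counts in replicate 1, or 0.900 and 0.870 TPM. Mrap exceeded Mrap2 by 6.96 in replicate 2 and by 7.05 in replicate 1 on the log2(TPM + 0.1) scale, with an SD of 0.07 between them (n = 2). With the second transcript table the difference was 7.42.

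Between receptor and kinase, Gnas was the most abundant gene of any pathway list. Gnas, which encodes the stimulatory G alpha subunit, had 1834 TPM in replicate 2 against 1974 TPM in replicate 1. The inhibitory subunits followed with 96.9 and 97.2 TPM for Gnai2, and with 37.5 and 43.6 TPM for Gnai3. Gnal, the olfactory form of the stimulatory subunit, had only 0.240 TPM in replicate 2 against 0.280 TPM in replicate 1. The Gnas locus is known to be imprinted and to give several transcripts, and its gene level sums over them.

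Adenylyl cyclase was carried by several forms, 7 of 10 of which were detected, against 56.7% of nuclear protein-coding genes. Adcy6 had 27.7 TPM in replicate 2 against 29.2 TPM in replicate 1. Adcy3 had 12.4 TPM in replicate 2 and 30.9 TPM in replicate 1, and Adcy9 had 10.4 and 9.07 TPM. Adcy6 lay close together in the libraries, while Adcy3 was well below in replicate 2 and lay above Adcy6 in replicate 1. Adcy4, Adcy5, Adcy7 and Adcy1 had means between 1.23 and 3.96 TPM, and Adcy2, Adcy10 and Adcy8 lay under 1 TPM in both libraries.

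Both catalytic subunits of PKA were present, with Prkaca ahead. Prkaca (ENSMUSG00000005469.10, chr8:83972993-83996443, plus strand), the alpha subunit, had 83.9 TPM in replicate 2 and 87.3 TPM in replicate 1. Prkacb (ENSMUSG00000005034.15, chr3:146729574-146812990, minus strand), the beta subunit, had 30.9 TPM in replicate 2 and 34.2 TPM in replicate 1. Prkaca exceeded Prkacb by 1.44 in replicate 2 and by 1.35 in replicate 1 on the log2(TPM + 0.1) scale. It held 72.5 ± 0.854% of the summed catalytic TPM, and Prkacb held 27.5% (SD, n = 2). With the second transcript table the share of Prkaca was 67.9%.

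The paralogs are alike in sequence, and their first coding exons are shown because that part also sets their isoforms apart. Prkaca-201 (chr8:83973187-83973232, plus strand), Prkaca-202 (chr8:83977073-83977094, plus strand) and Prkacb-202 (chr3:146812638-146812683, minus strand) begin as follows in GRCm38, read 5′ to 3′, with the start codon in capitals:
Prkaca-201: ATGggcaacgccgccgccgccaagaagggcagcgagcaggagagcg
Prkaca-202: ATGgcttccagctccaacgatg
Prkacb-202: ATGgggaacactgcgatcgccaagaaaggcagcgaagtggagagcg
The first coding exon parts of Prkaca-201 and Prkacb-202 match at 36 of 46 bases, or 78.3%. Over all 1053 coding bases they match at 845, or 80.2%; the deposited posterior SD of their counts was 0. Prkaca-202, whose first coding exon is 22 bases long, held 0.360% of the gene's TPM in replicate 2 and 0.190% in replicate 1. This short first exon is that of the form known from sperm, and the second transcript table gave it 5.44% and 5.42%.

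Regulatory subunits outnumbered catalytic ones, and the type II beta subunit led. Prkar2b (ENSMUSG00000002997.15, chr12:31958476-32061296, minus strand), known for its place in fat, brain and endocrine tissue, had 192 TPM in replicate 2 and 219 TPM in replicate 1. Its mean of 206 ± 19.0 TPM (SD, n = 2) exceeded that of 98.0% of detected genes. Prkar1a (ENSMUSG00000020612.16, chr11:109649405-109669656, plus strand), the type I alpha subunit whose loss frees PKA in human Carney complex, had 114 TPM in replicate 2 and 128 TPM in replicate 1. Both were lower in replicate 2, and Prkar2b exceeded Prkar1a in each library. On the log2(TPM + 0.1) scale Prkar1a minus Prkar2b was -0.75 in replicate 2 and -0.77 in replicate 1.

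Prkar2b and Prkar1a made up nearly all of the regulatory pool. Prkar2b held 59.8 ± 0.0955% of the summed regulatory TPM, Prkar1a 35.3 ± 0.308%, Prkar2a 3.45 ± 0.307% and Prkar1b 1.47 ± 0.0950% (SD, n = 2). Prkar2a, the type II alpha subunit, had 10.4 TPM in replicate 2 and 13.4 TPM in replicate 1, and Prkar1b, the type I beta subunit known from neurons, had 4.96 and 5.15 TPM. The catalytic sum was 115 TPM in replicate 2 and 121 TPM in replicate 1, and the regulatory sum was 322 and 366 TPM. Catalytic over regulatory transcripts therefore came to 0.357 in replicate 2 and 0.332 in replicate 1. These are transcript levels and give no ratio of proteins. Brown adipocytes are also known to express Prkar2b, and their markers, summing to 3076 TPM in replicate 2 and 3483 TPM in replicate 1, were far from absent. Their part in its level was not tested.

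The heat-stable PKA inhibitors were low beside the kinase. Pkig had 15.6 TPM in replicate 2 and 16.6 TPM in replicate 1, Pkia had 5.14 and 4.64 TPM, and Pkib had 0.190 and 0.260 TPM. Their sum was 20.9 TPM in replicate 2 against 21.5 TPM in replicate 1. The other direct cAMP targets, the Epac exchange factors, were led by Rapgef4 with 43.5 TPM in replicate 2 and 48.0 TPM in replicate 1, and Rapgef3 had 7.34 and 6.56 TPM. Rapgef4 thus stood above Prkacb in both libraries.

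A full cAMP response element was found in promoter windows of Prkar1a, and in none of the windows of the 7 other genes that had one. The motif TGACGTCA, which reads the same on both strands, was searched in RefSeq promoter windows of 300 bases (GRCm38.p6), of which 25 windows belonged to 8 of the genes. Mc2r and Mrap had no window and were not searched. It was found in 2 overlapping windows of Prkar1a, which hold the same site, and in 1.79% of all 32851 windows. That share counts windows and not genes, and genes differ in how many windows they have. The share of all genes with a site is not given here. The site of Prkar1a lies 13 bases before the start of Prkar1a-201, upstream of that transcript and in an intron of the longer Prkar1a-203. The 30 bases around it (chr11:109650889-109650918, plus strand) are shown 5′ to 3′ with the motif in capitals:
Prkar1a-201 upstream: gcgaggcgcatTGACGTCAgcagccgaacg
The shorter motif TGACG, searched on both strands and contained in TGACGTCA, was found in 7 of the 25 windows (28.0%), which belong to Prkaca, Prkacb, Prkar1a, Pde8b and Pde2a. It was found in 20.8% of all windows, close to that share. GC content had a median of 61.3% in these 25 windows and 52.7% in all windows. A match describes the letters alone, and no binding was measured.

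**Figure D2:**
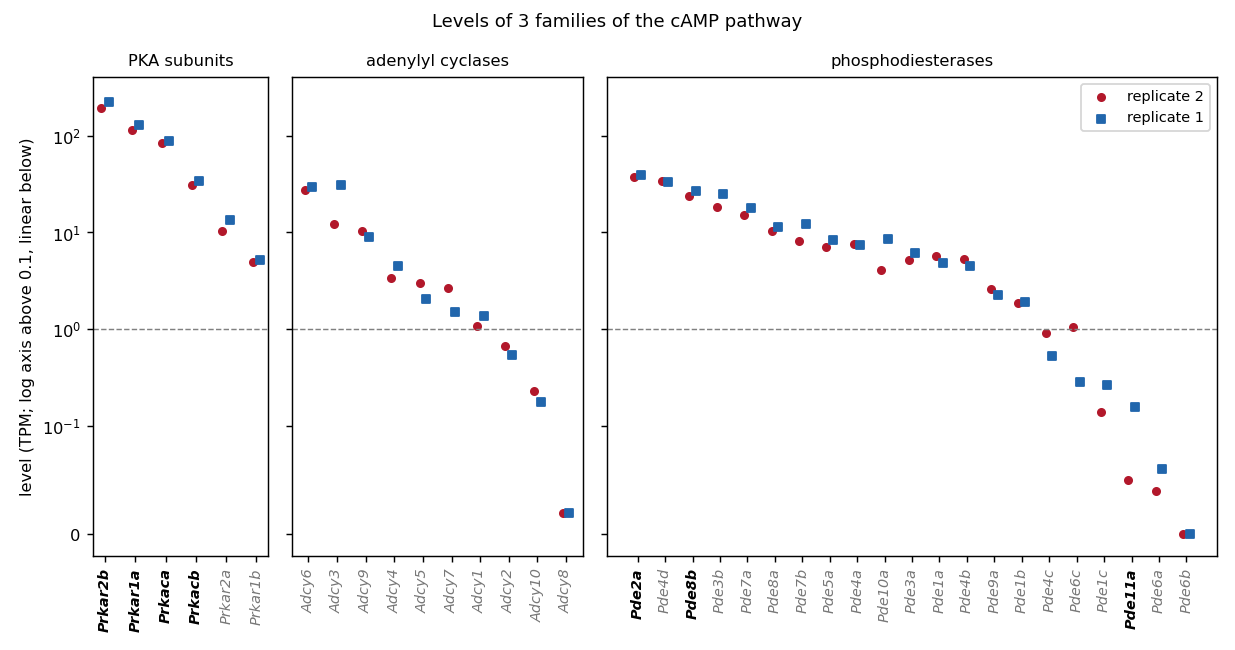
Levels in TPM of PKA subunits, adenylyl cyclases and phosphodiesterases, on an axis that is log above 0.1 and linear below, with a dashed line at 1 TPM and points for replicate 2 and replicate 1. Prkar2b and Prkar1a lie above Prkaca and Prkacb among the PKA subunits, Adcy3 has 12.4 TPM in replicate 2 and 30.9 TPM in replicate 1, and Pde2a, Pde4d and Pde8b lead the phosphodiesterases.

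Among phosphodiesterases, Pde2a and Pde8b were abundant, while Pde11a was barely detected. Pde8b (ENSMUSG00000021684.17, chr13:95024454-95250336, minus strand), a high-affinity cAMP-specific enzyme known for restraining basal steroid output in the adrenal cortex, had 23.9 TPM in replicate 2 and 26.9 TPM in replicate 1. Its mean of 25.4 ± 2.13 TPM (SD, n = 2) exceeded that of 79.6% of detected genes. On the other strand of the locus, Gm48420 had 8 counts in replicate 2 and 15 counts in replicate 1, and Gm16243 had 0 in both. The library kit keeps strand, per the labels, but whether counting used it is not stated there. Pde2a (ENSMUSG00000110195.1, chr7:101421691-101512827, plus strand), an enzyme that cGMP stimulates to break down cAMP, had 37.5 TPM in replicate 2 and 39.0 TPM in replicate 1. Pde8b minus Pde2a was -0.65 in replicate 2 and -0.53 in replicate 1 on the log2(TPM + 0.1) scale. With the second transcript table the mean difference nearly vanished, at -0.05 against -0.59 ± 0.08 (SD, n = 2).

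Pde11a, a dual cAMP and cGMP enzyme, had 5 counts in replicate 2 and 14 counts in replicate 1. That is 0.0500 TPM in replicate 2 and 0.160 TPM in replicate 1 for Pde11a (ENSMUSG00000075270.11, chr2:75989141-76338774, minus strand). Pde8b exceeded it by 7.01 ± 0.44 on the log2(TPM + 0.1) scale (SD, n = 2), a value that the pseudocount sets in part, since it was 8.15 with none.

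Of 21 phosphodiesterase genes, 15 were detected, against 56.7% of nuclear protein-coding genes, and Pde2a, Pde4d and Pde8b had the highest means. Pde2a held 19.2 ± 0.983% of their summed TPM, Pde4d 16.8 ± 1.42% and Pde8b 12.7 ± 0.0736% (SD, n = 2). Pde4d, a cAMP-specific enzyme of the rolipram-sensitive group, had 33.6 TPM in replicate 2 and 33.3 TPM in replicate 1. In the second transcript table Pde4d led with a mean of 55.7 TPM, ahead of Pde2a at 36.4 and Pde8b at 35.1 TPM. Pde3b, the insulin-activated form known from fat cells, held 10.7 ± 1.42%, Pde7a 8.22%, Pde8a 5.44% and Pde7b 5.06%. The other detected forms, Pde5a, Pde4a, Pde10a, Pde3a, Pde1a, Pde4b, Pde9a and Pde1b, each held between 0.953% and 3.86%. Pde4c, Pde6c, Pde1c and Pde6a each held between 0.0248% and 0.370%. Pde11a held 0.0512%. The cone photoreceptor form Pde6c had 1.05 TPM in replicate 2 and 0.290 TPM in replicate 1, with a mean under the minimum of 100 counts used for calls, and the rod form Pde6b had 0 counts in both, which allows up to 3 in each.

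The Pde2a level rests on how reads were shared with an overlapping gene model. Gm45837 (ENSMUSG00000030653.17, chr7:101410886-101512819, same strand), a gene named here after its values were seen, has 3955 of its 4139 exonic bases, or 95.6%, inside exons of Pde2a. In the gene table it had 0.320 counts in replicate 2 and 223 counts in replicate 1, with posterior SDs of 279 and 323 counts. Pde2a had 5008 counts in replicate 2 and 4959 in replicate 1, with posterior SDs of 277 and 322, while this SD was 0 for the other 9 genes. The second transcript table gave Gm45837 2219 counts in replicate 2 and 2099 in replicate 1, which is 40.1% and 36.8% of the counts of the pair. Against the gene table, and after centring on the median shift of detected nuclear protein-coding genes, Pde2a was 0.584-fold in replicate 2 and 0.645-fold in replicate 1. It was the one gene of the 8 detected that lay more than 1.5-fold apart between the tables on this scale, as did 6.10% of detected protein-coding genes. Summed with Gm45837, the locus had 5008 counts in replicate 2 and 5182 counts in replicate 1 of the gene table.

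The tables also differed on which Pde2a transcript held the largest share. The first transcript table gave Pde2a-209, annotated for nonsense-mediated decay, 59.0% of the gene's TPM in replicate 2 and 51.8% in replicate 1. The second gave it 6.48 ± 7.85% (SD, n = 2), and gave Pde2a-204, a protein-coding form, 58.5% in replicate 2 and 48.5% in replicate 1. Protein-coding transcripts held 30.6% of Pde2a in the first table and 78.0% in the second. Neither share counts Gm45837, whose transcript is itself annotated as protein-coding. It had 0 TPM in replicate 2 and 1.51 TPM in replicate 1 of the first table, and 19.3 and 19.9 TPM in the second. Pde2a-209 had 22.15 and 20.17 TPM in the first table, and 0.303 and 4.81 TPM in the second. The 2 percentages thus rest on unlike totals. Which table is nearer to the RNA was not tested.

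The stretches that set these transcripts apart are shown here in GRCm38, plus strand, 5′ to 3′. Pde2a-201 (chr7:101421925-101421995) and Pde2a-204 (chr7:101450628-101450728) start with different coding exons, given with the start codon in capitals. Pde2a-209 holds an extra exon, exon 3 (chr7:101461480-101461541, 62 bases). It is shown with the first 13 bases of the next exon (chr7:101481371-101481383), which end in a stop codon, given in capitals:
Pde2a-201: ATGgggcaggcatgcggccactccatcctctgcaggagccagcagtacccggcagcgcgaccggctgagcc
Pde2a-204: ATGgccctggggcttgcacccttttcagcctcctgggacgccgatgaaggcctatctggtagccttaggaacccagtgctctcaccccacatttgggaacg
Pde2a-209: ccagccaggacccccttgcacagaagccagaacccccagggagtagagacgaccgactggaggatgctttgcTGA
The same 62-base exon is part of 3 other Pde2a transcripts, each at most 3.08% of the gene in the first table, and of Gm45837. Reads from this exon therefore cannot be given to 1 gene by their sequence alone.

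The main transcript also differed between the tables for some of the other genes. Of the 9 genes with several transcripts, 6 had the same main transcript in both tables, and Mrap2, Prkar1a and Pde2a had another. For Prkar1a the first table gave Prkar1a-201 80.7% in replicate 2 and 80.6% in replicate 1, while the second gave Prkar1a-203 74.4% and 72.9%. Both encode the same 1143 coding bases and differ outside them. Likewise, Prkar2b-202 with 51.6% in replicate 2 and 48.9% in replicate 1 and Prkar2b-201 with 44.4% and 46.4% share 1248 coding bases, and the second table split them much alike. The main forms of Mrap2 in the 2 tables share 621 coding bases.

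For Mrap and Prkacb, the tables differed in how much RNA they gave to short or non-coding forms. Mrap-201, the protein-coding form, held 90.3% of the gene in replicate 2 and 89.2% in replicate 1 of the first table, and 72.0% and 68.0% in the second. Mrap-202, a decay form, held 5.40% in the mean of the first table and 21.2% in that of the second. Prkacb-202, the full-length form shown above, held 64.5% in replicate 2 and 61.3% in replicate 1 of the first table, and 46.5% and 43.8% in the second. The remainder went mainly to the partial form Prkacb-208 (28.2% in replicate 2 and 31.9% in replicate 1) in the first table and to Prkacb-207 (31.3% in the mean) and Prkacb-205 (18.3%) in the second. Pde8b was spread over many forms, led in both tables by Pde8b-207 with 25.0% and 31.3%. Pde11a shares rest on 5 and 14 counts of the gene table and are not described further.

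**Figure D3:**
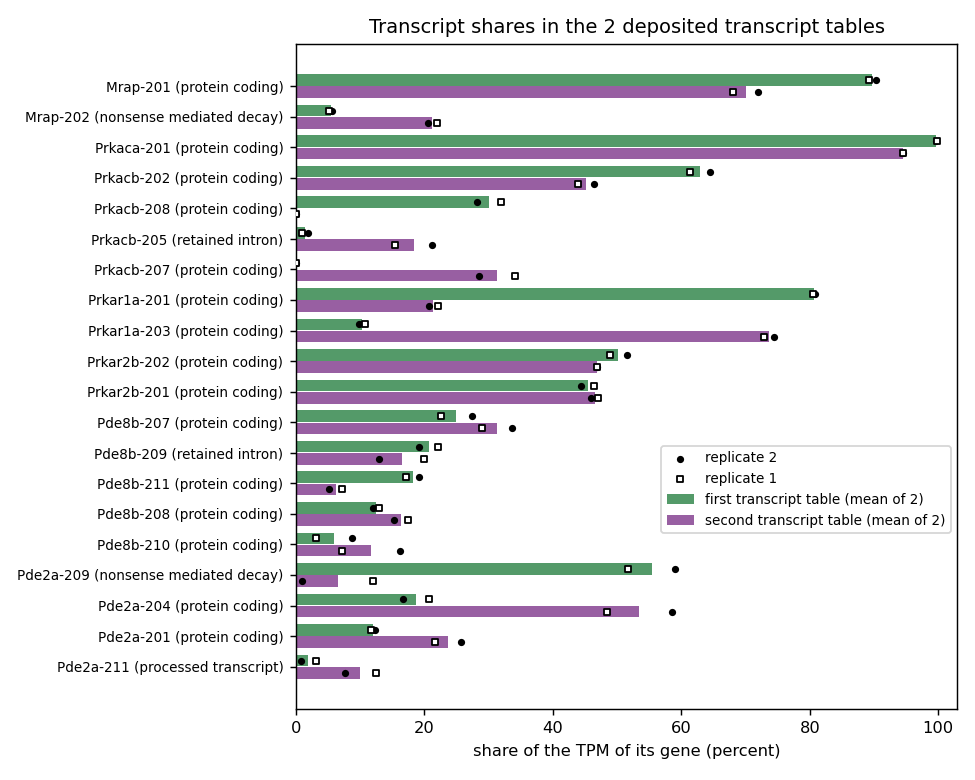
Share of each named transcript in the TPM of its gene, in percent, in the first table (green bars) and the second table (purple bars), with bars for the mean of 2 libraries and points for replicate 2 and replicate 1. Pde2a-209 and Prkar1a-201 hold 55.4% and 80.6% in the first table against 6.48% and 21.4% in the second.

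Between the libraries none of these genes was called apart. A gene was called where its scaled counts differed more than 1.5-fold with a mean of at least 100 counts. Of the 10 genes, 8 met that minimum and 0 were called, against 8.47% of all 13188 genes that met it. For 8 genes a count of 0 is near that share. The median size of the log2 ratio of replicate 2 over replicate 1 was 0.08 for the 8 genes and 0.13 for all genes. These 8 genes had means of at least 2206 counts, and the part of count depth in this was not tested.

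Small shifts that counting error does not cover were still seen, mostly downward in replicate 2. Prkar1a was 0.898-fold in replicate 2 over replicate 1 (95% interval 0.877 to 0.919, exact Clopper-Pearson) and Prkar2b 0.903-fold (0.885 to 0.922). Mc2r was 0.939-fold (0.893 to 0.986), Prkacb 0.951-fold (0.908 to 0.996) and Pde8b 0.940-fold (0.885 to 0.997). For these 5 genes the interval lay under 1, while those of Mrap at 0.987-fold (0.945 to 1.03), Prkaca at 0.975-fold (0.943 to 1.01) and Pde2a at 1.01-fold (0.972 to 1.05) held 1. Intervals cover counting error only and not the spread between animals or preparations. They rest on the scaling used for the folds. Scaling by library total moved all log2 ratios by -0.08, so which intervals hold 1 depends on the scaling. The share of all genes with an interval off 1 is not given here, so these 5 genes are not set apart from other genes. Of the 8 genes, 7 had a log2 ratio below 0, against 51.0% of all genes, and scaling by library total or by spike-ins put Pde2a below 0 too, with 66.2% and 62.5% of all genes. Log2 ratios below 0 were also found in 8 of 8 cortex markers with a median of -0.14, in 8 of 8 chromaffin markers with a median of -0.27 and in 8 of 8 zona glomerulosa markers with a median of -0.46. All 8 liver markers were called higher in replicate 2. Their part in the shifts was not tested.

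Mrap2 and Pde11a were too low to place. Mrap2 was 1.05-fold (0.729 to 1.51) and Pde11a 0.357-fold (0.101 to 1.05) in replicate 2 over replicate 1, so neither difference was detectable at this depth.

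**Figure D4:**
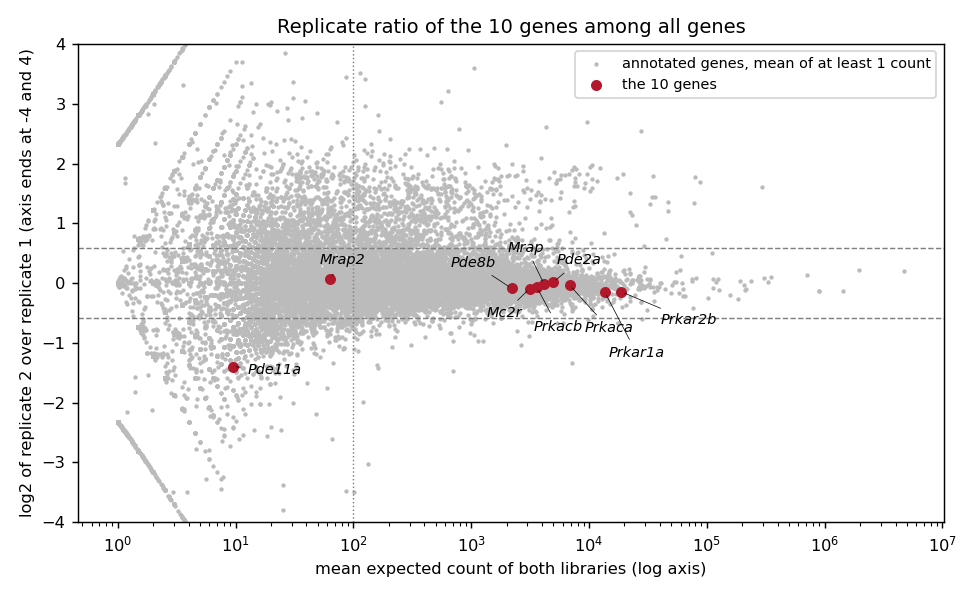
Log2 ratio of replicate 2 over replicate 1 against mean count on a log axis for all genes with a mean of at least 1 count, with the 10 genes labelled, 134 genes beyond the axis not drawn and dashed lines at 1.5-fold. The 8 genes with at least 100 counts lie between -0.16 and 0.02, and Pde11a lies lowest at -1.40.

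Elsewhere in the pathway, single cyclases and phosphodiesterases lay past 1.5-fold, the threshold that 8.47% of all genes passed. Of the 15 phosphodiesterases with at least 100 counts, 0 were higher and 2 lower in replicate 2, Pde7b at 0.659-fold and Pde10a at 0.510-fold. Of 7 adenylyl cyclases with enough counts, Adcy7 was higher in replicate 2 at 1.77-fold and Adcy3 lower at 0.490-fold. Adcy3 is known from olfactory neurons and fat. Of the 7 brown adipocyte markers 1 was lower in replicate 2 and 0 were higher, and of the 8 adipocyte markers 2 were higher and 0 lower. Their part in the level of Adcy3 was not tested. None of the 6 PKA subunits and 2 measured inhibitors was called.

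Genes that ACTH and cAMP are known to induce in the cortex were abundant. Star, the cholesterol carrier, had 1460 TPM in replicate 2 and 1611 TPM in replicate 1, Cyp11a1, the side-chain cleavage enzyme, had 622 and 706 TPM, and Cyp11b1, the last enzyme of corticosterone synthesis, had 505 and 597 TPM. These lay within 1.5-fold, as did 7 of the 9 target genes, while 2 were called, against 8.47% of all genes. Nr4a1 and Nr4a2, immediate-early nuclear receptors that many stimuli induce, were the exceptions. Nr4a1 had 196 TPM in replicate 2 and 120 TPM in replicate 1 and was 1.78-fold higher in replicate 2. Nr4a2 had 7.51 TPM in replicate 2 and 2.97 TPM in replicate 1 and was 2.59-fold higher. Mc2r, Mrap and the 4 PKA genes among the 10 had folds under 1 in the same direction of comparison, though the intervals of Mrap and Prkaca held 1. Log2 ratios were likewise below 0 in 5 of the 9 target genes and in 51.0% of all genes with at least 100 counts. The same held for 8 of 8 cortex markers and 8 of 8 chromaffin markers.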

How the data were processed

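The authors made a gene table and a first transcript table from transcriptome alignments (mm10, GENCODE M21), and a second transcript table from reads and an index, per the file headers and accompanying notes. The deposited tables hold expected or estimated counts, not normalised, TPM over all entries, and the percent of each transcript in its gene's TPM. The posterior SD of counts is the authors' value. Which aligner and tools were run is not given in the sources used here.

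For the ratio of the 2 libraries, counts were scaled with edgeR 4.0.16 (TMM) and given a prior of 0.5, which single folds left out. Intervals are exact binomial at 95%, and like the floor of 3 counts they leave out all error but that of counting, as the reads have no molecular identifiers. Spike-ins took 0.879% of counts in replicate 2 and 0.892% in replicate 1.

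The rule for named genes took the 10 genes, all phosphodiesterases, PKA subunits, inhibitors, cyclases and melanocortin receptors, the 3 most abundant of other lists, and transcripts holding 10% of a gene in either table. Marker lists are given as sums. Other genes named (among them Gm45837, Gm48420, Gm16243, Gnal, Nr4a2, Arrb2 and Akap4) were chosen after their values were seen. Members and lists were chosen with earlier results of these data known. No gene of like pattern is named, since 1 tissue gives no pattern. Software was R 4.3.3, DESeq2 1.42.0, Python 3.11.15, matplotlib 3.10.9, scipy 1.17.1, pandas 2.3.3 and numpy 2.4.6, and the ratio step was tested on simulated data. A further marker list is not reported here.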

Additional observations from a re-analysis of the deposited data

How the results depend on the processing

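With the second transcript table the log2 differences were 1.08 for Prkaca minus Prkacb, -0.95 for Prkar1a minus Prkar2b, 7.42 for Mrap minus Mrap2, 1.63 for Mrap minus Mc2r and -0.052 for Pde8b minus Pde2a. Catalytic shares were 67.9% for Prkaca and 32.1% for Prkacb. Regulatory shares were 61.8% for Prkar2b, 32.1% for Prkar1a, 4.20% for Prkar2a and 1.92% for Prkar1b. Transcript shares were 70.0% for Mrap-201, 11.8% for Mrap2-203, 94.6% for Prkaca-201, 45.2% for Prkacb-202, 21.4% for Prkar1a-201, 46.9% for Prkar2b-202, 31.3% for Pde8b-207 and 6.48% for Pde2a-209. The cause was not tested. A pseudocount of 1 gave 6.08 for Mrap minus Mrap2 and 4.58 for Pde8b minus Pde11a, and no pseudocount gave 7.16 and 8.15, since the lower gene of each pair is near 0. With no filter on low counts 1 gene, Pde11a, lay more than 1.5-fold apart.

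No difference between paired genes changed sign under these settings. The log2 ratio of Pde2a, 0.02 as reported, was -0.13 with the second transcript table, -0.06 by library total and -0.04 by spike-ins, and that of Mrap2, 0.07 as reported, was -0.008 by library total. Mean levels moved for all 10 genes in the second table, with Mrap at 243 TPM and Prkacb at 62.8 TPM, and on a scale of nuclear protein-coding genes alone, with Mc2r at 167 TPM. The number of genes at the TPM minimum was within 1.5 times at thresholds of 0.5 and 5 TPM and in the second table, where it was 9. Of the 8 genes that met the count minimum, 0 were called at a lower and a higher fold threshold and under each scaling. The shares of all genes called under these other settings are not given here. Leaving out 1 library returns the value of the other, so it adds no separate check. Scaling by library total, spike-ins or DESeq2 size factors moved all log2 ratios by -0.08, -0.06 and -0.001. With Gm45837 counts added, an alternative chosen after seeing the data, the log2 ratio of Pde2a was -0.05 in place of 0.02. No paired analysis was possible because the series holds a single group. Depth limits Mrap2 and Pde11a, with at most 65 and 14 counts.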

Other observations

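All 6 genes of the CREB family and its coactivators, which act downstream of PKA, were detected, against 56.7% of nuclear protein-coding genes. All 6 lay within 1.5-fold between the libraries, where 8.47% of all genes lay further apart. Crem, a cAMP-responsive modulator gene, had 29.7 TPM in replicate 2 and 27.1 TPM in replicate 1, Atf1 had 16.5 and 20.8 TPM, and the coactivator gene Crtc2 had 12 and 14.1 TPM. Of 14 A-kinase anchors, which hold PKA at membranes and organelles, 11 were detected and all 11 lay within 1.5-fold, against the same 56.7% and 8.47%. Akap1, an anchor at the outer mitochondrial membrane, had 45.1 TPM in replicate 2 and 47.7 TPM in replicate 1. Akap2 had 30.6 TPM in replicate 2 and 35.8 TPM in replicate 1, and Akap7 had 28.8 and 25.6 TPM. Akap4, known from the sperm tail, and Akap14 had 0 counts in each library, so up to 3 counts stay possible.

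The 6 receptor kinases and arrestins, which switch off activated receptors, were all detected, against 56.7% of nuclear protein-coding genes. Grk2 had 15.4 TPM in replicate 2 and 15.3 TPM in replicate 1, Arrb1 had 15.3 and 14.0 TPM, and Grk6 had 13.4 and 13.8 TPM. Arrb2 had 7.21 TPM in replicate 2 and 4.56 TPM in replicate 1 and was the one called of the 6, at 1.54-fold higher in replicate 2, against 8.47% of all genes. Of the 5 macrophage markers with at least 100 counts, 4 were called higher in replicate 2. Their part in it was not tested.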
